A study of Prunus persica with 8 samples.

Results

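The DORMANCY-ASSOCIATED MADS-BOX (DAM) locus of peach was examined in flower buds of the nectarine cultivar Fantasia during winter chilling. Its members were taken by gene number, as every feature of chromosome 1 numbered from PRUPE_1G531100 to PRUPE_1G531700, and not by their level. Of the 22285 features used here, 6 fell in this range, and none bore the number PRUPE_1G531200. The 6 were PRUPE_1G531100, PRUPE_1G531300, PRUPE_1G531400, PRUPE_1G531500, PRUPE_1G531600 and PRUPE_1G531700. The members are called by these identifiers, because no identifier in the table could be found among the 26412 genes listed by RefSeq for assembly Prunus_persica_NCBIv2. The name of the locus therefore rests on the numbers, was not checked against the protein or DNA sequences, and does not say which identifier is which DAM gene.

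DAM genes encode transcription factors of the MADS-box family, in the clade of the Arabidopsis flowering repressor SVP, and stand next to each other as a tandem array. Part of the array is deleted in the evergrowing mutant of peach, whose shoot tips do not stop growing and do not enter dormancy in winter. In peach and its relatives, several DAM genes are known for transcript levels that are high in dormant buds and decline as cold accumulates, and they are widely used as markers of dormancy progression. MADS-box proteins bind DNA in pairs and larger complexes, so members of the family that are present together can act on the same targets.

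Buds were collected in the field from 10-year-old Fantasia trees at 4 stages, named 0CU, 200CU, 475CU and 770CU after the chilling units (CU) accumulated by then, a measure of cold, with no other treatment or genotype. The collection days spanned 63 days from 0CU to 770CU, so stage and collection day cannot be told apart. By the labels, each stage had 2 RNA-Seq libraries of buds. By the study's methods, buds of 0, 475 and 770CU came from groups of several plants for each replicate, and their scales were removed. The collection at 200CU is not described there. The trees were of a single cultivar at a single site in a single winter. In such bulk samples, a lower level from fewer cells of a type and one from less RNA per cell cannot be told apart. The deposited values are FPKM, that is fragment numbers scaled to feature length and library size, with 1 value per stage, and each was found to be the mean of 2 libraries holding whole numbers of fragments. Both libraries were recovered in this way for 21973 of the 22285 features (98.6%), including all 6 members. They are given below with the library of larger effective size first. The effective sizes ran between 18051083 and 25374451 fragments over the 8 libraries. Which recovered library belongs to which numbered replicate is not known, and the tests below measure only the spread between these libraries.

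The transcript levels of the array declined strongly over the chilling period. The FPKM of the 6 members added up to 1427 at 0CU, then 1300 at 200CU, then 660.9 at 475CU and finally 197.2 at 770CU. The sum at 200CU, 475CU and 770CU was thus 91.1%, 46.3% and 13.8% of that at 0CU. In the libraries, the sums were 1361 and 1493 at 0CU, then 1275 and 1325 at 200CU, then 700.8 and 621.0 at 475CU, and finally 199.8 and 194.6 at 770CU, without overlap between any pair of stages. Most of the sum came from PRUPE_1G531700, PRUPE_1G531600 and PRUPE_1G531500. PRUPE_1G531700 held 57.3%, 47.8%, 49.6% and 40.6% of it at 0, 200, 475 and 770CU, while the share of PRUPE_1G531500 was 8.88%, 15.7%, 24.9% and 30.4%. The FPKM of all features measured added up to 763437, 641480, 709837 and 598455 at 0, 200, 475 and 770CU. Between 0CU and 200CU this total fell by a larger proportion than the array's sum. The direction of that step therefore depended on whether values were scaled to this total. Median-ratio factors, taken from the ratios of single features between libraries, were 1.006 to 1.008 in all 8 libraries.

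**Figure D1:**
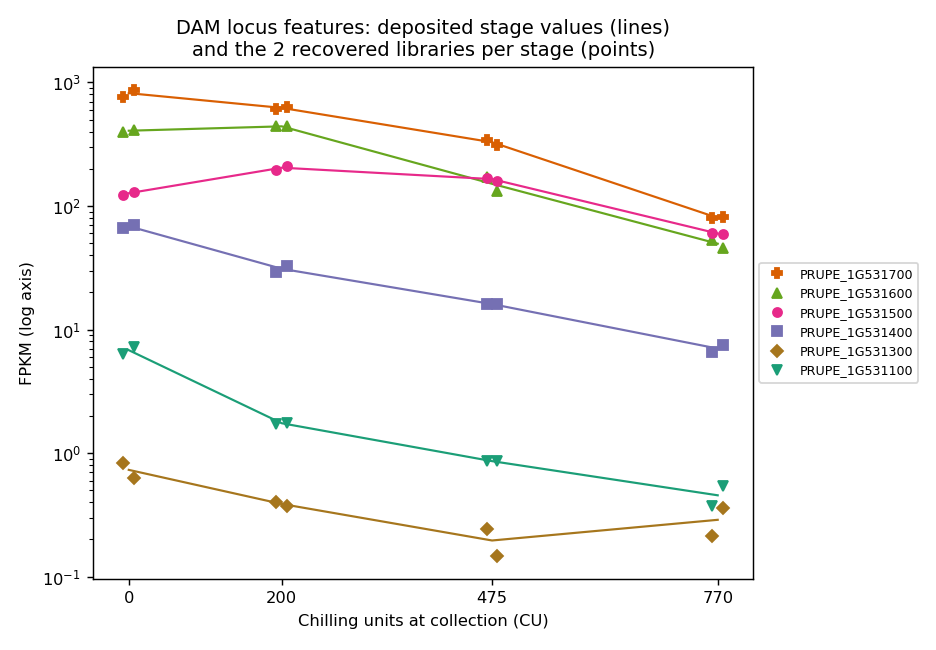
Level of each of the 6 DAM locus features at 0, 200, 475 and 770CU (x axis, chilling units) in FPKM on a log y axis, with 1 colour and marker per feature. Points are the 2 recovered libraries and the line joins the deposited stage values. The level of PRUPE_1G531700 was 818 FPKM at 0CU and 80.1 at 770CU, that of PRUPE_1G531500 was highest at 200CU, and that of PRUPE_1G531300 stayed below 1 FPKM.

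PRUPE_1G531700 had the highest FPKM of the members at every stage. It had 766.5 and 869.5 FPKM at 0CU, then 606.7 and 636.8 at 200CU, then 344.0 and 311.6 at 475CU, and finally 79.19 and 80.96 at 770CU. The 4 stages did not overlap, and each stage lay below the one before. At 0CU it ranked 42nd of all 22285 features by FPKM, and at 770CU it ranked 944th. Its level at 770CU was 9.79% of that at 0CU, a 10.2-fold difference.

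PRUPE_1G531600, the second in abundance at 0CU and 200CU, fell in both intervals after 200CU, while its change before that did not pass the test. It had 398.5 and 414.0 FPKM at 0CU, then 440.7 and 440.8 at 200CU, then 170.1 and 132.2 at 475CU, and finally 53.41 and 45.6 at 770CU. Libraries of 475CU and 770CU lay below all libraries of the earlier stages, and the libraries of 475CU stood further apart (1.29-fold) than those of the other stages. The level at 770CU was 12.2% of that at 0CU.

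PRUPE_1G531500 was the only member to pass the test with a higher level at a later stage. It had 122.8 and 130.7 FPKM at 0CU, then 195.7 and 212.3 at 200CU, then 169.5 and 160.3 at 475CU, and finally 60.04 and 59.63 at 770CU. Its level at 200CU was thus 161% of that at 0CU, at 475CU it was 130%, and only at 770CU did it lie below the level at 0CU, at 47.2%. In rank it was 491st, 277th, 394th and 1328th of all features at 0, 200, 475 and 770CU.

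PRUPE_1G531400 declined by a similar factor at each step. It had 66.38 and 70.67 FPKM at 0CU, then 29.47 and 32.52 at 200CU, then 16.18 and 15.94 at 475CU, and finally 6.563 and 7.461 at 770CU. No stage overlapped with another, and the levels were 45.2%, 23.4% and 10.2% of that at 0CU at 200, 475 and 770CU.

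PRUPE_1G531100 was a member of low abundance with the largest proportional decline. It had 6.376 and 7.239 FPKM at 0CU, then 1.725 and 1.763 at 200CU, then 0.86 and 0.861 at 475CU, and finally 0.3724 and 0.5384 at 770CU. In FPKM, most of this decline lay in the first interval, since the level at 200CU was 25.6% of that at 0CU. In fold, the decline was 3.90-fold from 0CU to 200CU, then 2.03-fold to 475CU and 1.89-fold from there to 770CU. The level at 770CU was 6.69% of that at 0CU, a 14.9-fold difference, with 29 and 36 fragments in the libraries.

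PRUPE_1G531300 was at the lower end of the measured range at all stages. It had 0.8372 and 0.6258 FPKM at 0CU, then 0.3983 and 0.3764 at 200CU, then 0.2441 and 0.1483 at 475CU, and finally 0.215 and 0.3618 at 770CU. These values rest on 5 to 29 fragments per library, and the libraries of a stage differed by up to 1.68-fold. The libraries of 475CU and 770CU overlapped, whereas those of 0CU lay above those of all later stages.

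FPKM are divided by the length of the feature, so the members can be put in order within a stage. At 0CU and 200CU the order was PRUPE_1G531700, PRUPE_1G531600, PRUPE_1G531500, PRUPE_1G531400, PRUPE_1G531100 and PRUPE_1G531300 from high to low, and the libraries of neighbours did not overlap. At 475CU and 770CU PRUPE_1G531500 stood above PRUPE_1G531600, next to PRUPE_1G531700. The libraries of PRUPE_1G531500 and PRUPE_1G531600 overlapped at 475CU, where the stage values differed by 1.09-fold, and stood apart at 770CU, where PRUPE_1G531500 was 1.21-fold higher. The other neighbours stood apart at both stages. By fragments not divided by length, PRUPE_1G531500 stood first and PRUPE_1G531700 second at 770CU, and the order at the other stages was as by FPKM. Members of a tandem array can share near-identical stretches, and how fragments matching several of them were counted is not given in the sources used here, so the division of fragments among the members is uncertain.

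Differences between stages were tested with limma on log2(FPKM + 1) of the recovered libraries over 18332 features, with Benjamini-Hochberg adjustment over all of them, and a feature was called at an adjusted p below 0.05. On this scale the change of a feature of low abundance is understated. The features tested had at least 1 FPKM in at least 2 libraries. PRUPE_1G531300 was below this limit in every library and was kept as a member, while the other 5 members passed it. PRUPE_1G531100 passed it only through 0CU and 200CU, the stages where it was high. It lay below 1 FPKM in the libraries of 475CU and 770CU. As a member it was kept whatever its level, but its tests involving these later stages rest on values under the limit.

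Between 0CU and 770CU, the whole chilling period, all 6 members fell. In each of the 6, both libraries of 770CU lay below both of 0CU, as in 36% of all features tested, while 37.3% lay above. With limma, 19.7% of all features were called lower in this comparison and 21.5% higher (41.2% in all). The change in log2(FPKM + 1) was -3.33 (SE 0.12, adjusted p = 5.1e-06) for PRUPE_1G531700, the 21st lowest of the 18332 features. It was -3.12 (SE 0.088, adjusted p = 2.6e-06) for PRUPE_1G531400, the 29th lowest, and -3.02 (SE 0.14, adjusted p = 1.3e-05) for PRUPE_1G531600, the 35th lowest. PRUPE_1G531100 changed by -2.42 (SE 0.11, adjusted p = 1.4e-05). These 4 members therefore all stood among the 64 lowest changes on the log2(FPKM + 1) scale. For PRUPE_1G531100 this place rests on levels at 770CU that were under the limit on low values. Ranks by proportional change were not taken. The change was -1.07 (SE 0.087, adjusted p = 0.00014) for PRUPE_1G531500 and -0.43 (SE 0.13, adjusted p = 0.032) for PRUPE_1G531300. The size for the members of low level depended on the pseudocount. In fold, the FPKM of PRUPE_1G531300 differed 2.54-fold and those of PRUPE_1G531500 2.12-fold, and the change of PRUPE_1G531300 was -1.11 with a pseudocount of 0.1 and -1.37 with voom. For PRUPE_1G531100 these changes were -3.65 and -3.91, beyond the -3.35 of PRUPE_1G531700 in either. The median change was -2.72 for the 6 members and 0.0029 for all features tested. The call of PRUPE_1G531300 was lost when the larger 0CU library or either 770CU library was left out, with adjusted p values of up to 0.15. When each stage was rescaled to the same summed FPKM, the median of all features moved to 0.30. The changes on that scale were -2.98 for PRUPE_1G531700 and -0.31 for PRUPE_1G531300, whose adjusted p was then 0.070, and the other 5 members kept their calls.

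**Figure D2:**
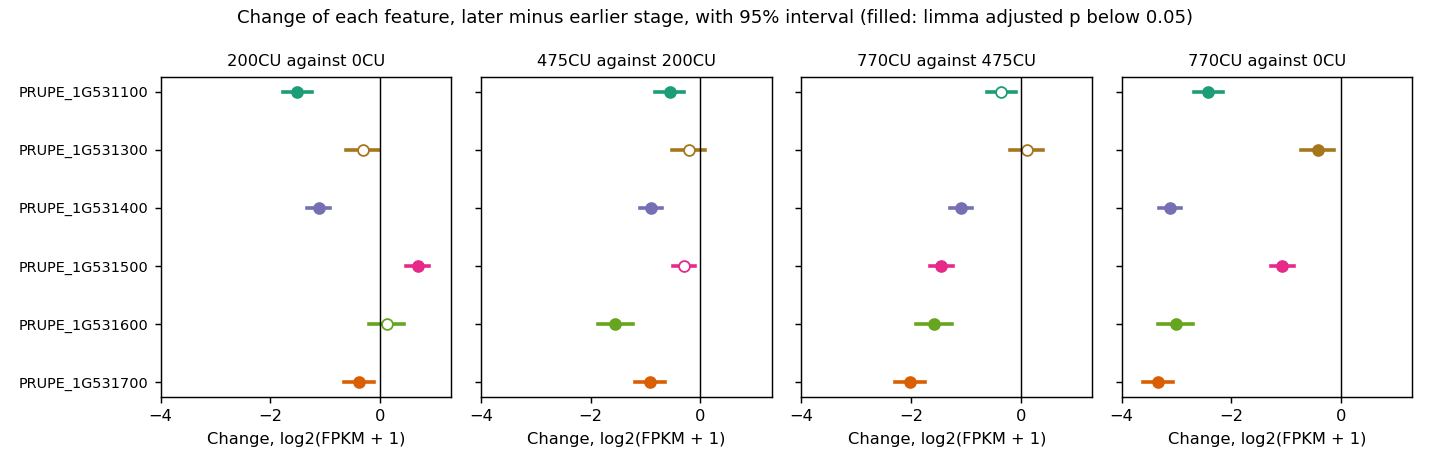
Change in log2(FPKM + 1) (x axis) of each member (rows) in the 4 comparisons (panels), as later minus earlier stage in limma estimates with 95% confidence intervals. Filled points passed an adjusted p below 0.05 and open points did not. All 6 members lay left of 0 at 770CU against 0CU, and PRUPE_1G531500 lay right of 0 at 200CU against 0CU with a change of 0.68.

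In the first interval the members moved in different directions. At 200CU, 3 of the 6 were called lower and 1 higher than at 0CU, where 10.9% of all features were called lower and 13.6% higher (24.5% in all). The libraries of the 2 stages stood apart in all 6 members, in 4 with 200CU lower and in 2, PRUPE_1G531500 and PRUPE_1G531600, with 200CU higher, beside 29.3% and 31.6% of all features. The level of PRUPE_1G531100 was 1.744 FPKM at 200CU, against 6.807 at 0CU, a change of -1.51 on the log2(FPKM + 1) scale (SE 0.11, adjusted p = 0.00031). PRUPE_1G531400 had 31.0 FPKM at 200CU, against 68.52 at 0CU (change -1.12, SE 0.088, adjusted p = 0.00036). PRUPE_1G531500 rose, with 204.0 FPKM at 200CU against 126.8 at 0CU (change 0.68, SE 0.087, adjusted p = 0.0024). These 3 calls stood under every alternative that was run. PRUPE_1G531700 was called lower by a small margin, with 621.7 FPKM at 200CU against 818.0 at 0CU (change -0.39, SE 0.12, adjusted p = 0.046). Its call was lost on leaving out any library other than the larger 0CU one, and after rescaling to the same summed FPKM, where the change was -0.14 (adjusted p = 0.37) beside a median of 0.22 over all features. For PRUPE_1G531600 the interval of the change, -0.20 to 0.44, included 0 (adjusted p = 0.57). After rescaling to the same summed FPKM its change was 0.37 and also did not pass (limma adjusted p = 0.070). For PRUPE_1G531300 the change was -0.32, with an interval of -0.62 to -0.018, and did not pass the adjustment (adjusted p = 0.11).

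In the second interval PRUPE_1G531600, PRUPE_1G531700, PRUPE_1G531400 and PRUPE_1G531100 fell. At 475CU, 4 of the 6 members were called lower than at 200CU and none higher, in a comparison where 1.24% of all features were called lower and 1.88% higher (3.12% in all). The libraries of 475CU lay below those of 200CU in all 6 members, beside 25.8% of all features, and above them in 27.4% of all features. PRUPE_1G531600 had 151.1 FPKM at 475CU, against 440.8 at 200CU, a change of -1.55 (SE 0.14, adjusted p = 0.0073), the 4th lowest of the 18332 features. PRUPE_1G531700 had 327.8 FPKM at 475CU, against 621.7 at 200CU (change -0.92, adjusted p = 0.014). PRUPE_1G531400 had 16.06 FPKM at 475CU, against 31.0 at 200CU (change -0.91, adjusted p = 0.0077). The call of PRUPE_1G531100 (change -0.56, adjusted p = 0.047) was lost whichever of the 8 libraries was left out. PRUPE_1G531500 had a change of -0.30 with an interval of -0.51 to -0.10 (adjusted p = 0.11), and PRUPE_1G531300 one of -0.21 with an interval of -0.51 to 0.084 (adjusted p = 0.38). These calls depended on single libraries. Without the smaller 475CU library limma called none of the members and 1 feature of 18332, although 4 members had an unadjusted p below 0.05 and PRUPE_1G531600 still changed by -1.37 (adjusted p = 0.060). Without the larger 475CU or the smaller 200CU library, 2 members were called, PRUPE_1G531700 no longer being among them (adjusted p of up to 0.14 when any of these 3 libraries was left out).

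In the third interval the 4 most abundant members fell. At 770CU these 4 of the 6 were called lower than at 475CU and none was called higher, where 6.54% of all features were called lower and 4.57% higher (11.1% in all). The libraries of 770CU lay below those of 475CU in 5 members, beside 31% of all features, and overlapped in PRUPE_1G531300, while in 31.3% of all features they lay above. PRUPE_1G531700 had 80.08 FPKM at 770CU, against 327.8 at 475CU, a change of -2.02 (adjusted p = 0.00024), the 29th lowest of all features tested. PRUPE_1G531600 had 49.5 FPKM at 770CU, against 151.1 at 475CU (change -1.58, adjusted p = 0.00087). PRUPE_1G531500 had 59.83 FPKM at 770CU, against 164.9 at 475CU (change -1.45, adjusted p = 0.00025), the only interval in which it was called lower. PRUPE_1G531400 had 7.012 FPKM at 770CU, against 16.06 at 475CU (change -1.09, adjusted p = 0.00068). The 4 calls stood under every alternative and without any single library. The changes of PRUPE_1G531100 (-0.36, interval -0.62 to -0.092, adjusted p = 0.091) and PRUPE_1G531300 (0.11, interval -0.19 to 0.41, adjusted p = 0.67) did not pass. For PRUPE_1G531100 the adjusted p was 0.043 when the pseudocount was 0.1.

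The proportions between members were then followed within single libraries, where the effective size cancels. The ratio of PRUPE_1G531500 to PRUPE_1G531700 was 0.160 and 0.150 at 0CU, then 0.323 and 0.334 at 200CU, then 0.493 and 0.514 at 475CU, and finally 0.758 and 0.737 at 770CU. It was higher at each stage than at the one before, with no overlap. The ratio of PRUPE_1G531500 to PRUPE_1G531600 was 0.308 and 0.316 at 0CU, then 0.444 and 0.482 at 200CU, then 0.997 and 1.21 at 475CU, and finally 1.12 and 1.31 at 770CU, and overlapped only between 475CU and 770CU. By contrast, the ratio of PRUPE_1G531600 to PRUPE_1G531700 had no single direction, with 0.520 and 0.476 at 0CU, then 0.726 and 0.692 at 200CU, then 0.494 and 0.424 at 475CU, and finally 0.674 and 0.563 at 770CU. That of PRUPE_1G531400 to PRUPE_1G531700 was 0.0866 and 0.0813 at 0CU and 0.0829 and 0.0921 at 770CU, which overlapped, and lay between 0.0470 and 0.0512 at 200CU and 475CU. These ratios are descriptions, for pairs chosen with the levels known, and no test was run on them.

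**Figure D3:**
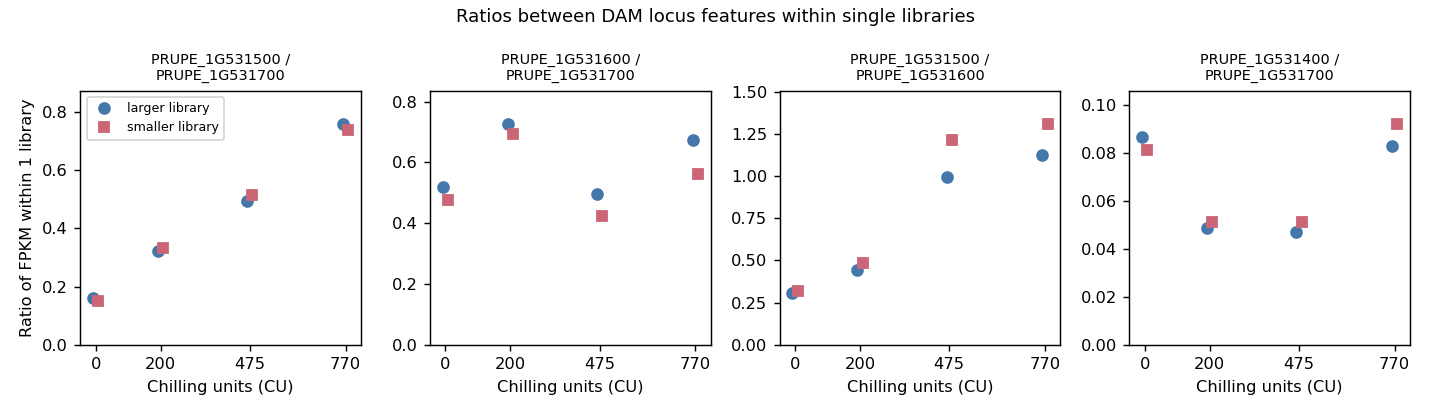
Ratio of the FPKM of members within single recovered libraries (y axis, linear from 0) at 0, 200, 475 and 770CU (x axis, chilling units), 1 panel per pair of members. Circles are the larger and squares the smaller library of each stage. The ratio of PRUPE_1G531500 to PRUPE_1G531700 was 0.150 to 0.160 at 0CU and 0.737 to 0.758 at 770CU.

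Features next to the array by gene number were set beside the members. The 10 features with the next lower and the 10 with the next higher numbers had a median level of 8.86 FPKM at 0CU, then 8.93 at 200CU, then 9.38 at 475CU and finally 8.91 at 770CU. Of these 20, 16 were tested, while 3 were under the limit on low values and the libraries of 1, PRUPE_1G530000, were not recovered. PRUPE_1G530000 was the most abundant of the 20 at every stage, with 131.3, 113.6, 103.4 and 80.06 FPKM at 0, 200, 475 and 770CU, a difference of -0.71 in log2(FPKM + 1) between 770CU and 0CU that has no test. In the 16 tested, at 770CU against 0CU, the changes in log2(FPKM + 1) ran from -0.40 to 0.41 with a median of 0.018, and 1 was called higher and 2 lower, beside 21.5% and 19.7% of all features. In comparison, 5 of the 6 members had changes between -3.33 and -1.07. PRUPE_1G531300 changed by -0.43, close to the lowest of the flanking features tested. At 200CU against 0CU 1 of the 16 was called, lower, beside 24.5% of all features called in either direction. At 475CU against 200CU 2 of the 16 were called, both higher, beside 3.12%, and at 770CU against 475CU 1 was called, lower, beside 11.1%. Order by number is not a distance in bases, which was not analysed here.

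**Figure D4:**
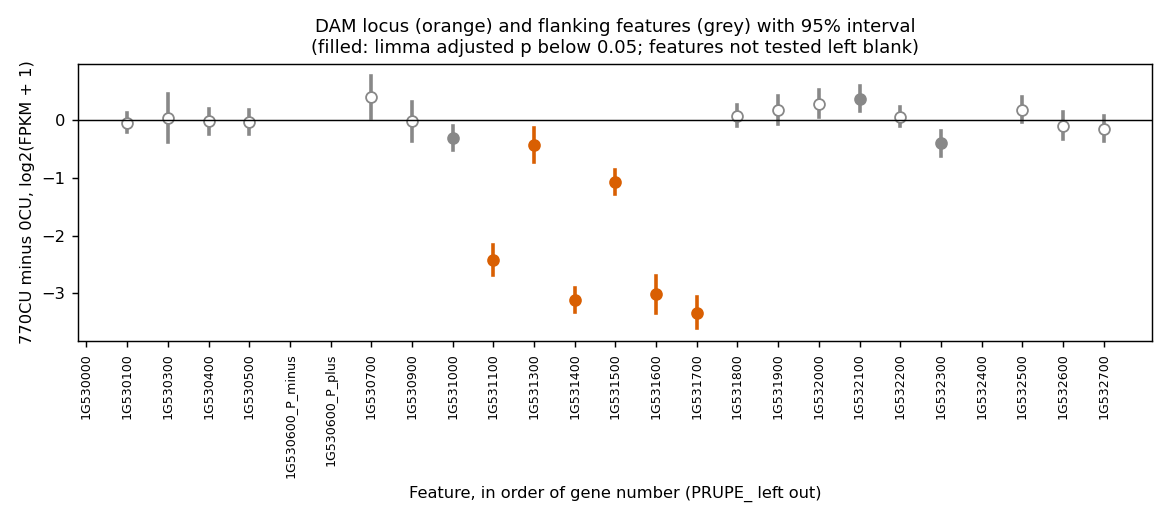
Change in log2(FPKM + 1) at 770CU against 0CU (y axis) of the 6 members and of the 16 flanking features tested (PRUPE_1G530000 was not), in the order of their gene numbers (x axis, not to genomic scale), with 95% confidence intervals. Filled points had an adjusted p below 0.05. The members lay between -3.33 and -0.43 and the flanking features tested between -0.40 and 0.41.

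Chromatin marks are known to take part in the control of the array, and the study pairs 6 identifiers with chromatin regulators, which it may have chosen on these same samples. At 200CU against 0CU, PRUPE_8G183700, a histone deacetylase gene of the HDA19 type, was called higher (change 0.74, adjusted p = 0.0020) and PRUPE_6G322900, a jmjC histone demethylase gene of the JMJ24 type, lower (change -0.38, adjusted p = 0.012), beside 24.5% of all features called. Of these 6 regulators, 0 were called with limma at 475CU against 200CU, where 2 had an unadjusted p below 0.05, and 0 at 770CU against 475CU, where 0 had one, beside 3.12% and 11.1% of all features. With voom both counts were also 0, with 2 and 0 below 0.05 unadjusted. At 770CU against 0CU 1 was called higher, again PRUPE_8G183700 (change 0.92), and 2 were called lower, with a median of -0.22 over the 6 and beside 41.2% of all features called. The ubiquitin gene PRUPE_4G204900, used by the study to normalize real-time PCR of fruit and not of buds, had 84.9, 42.6, 69.71 and 81.93 FPKM at 0, 200, 475 and 770CU. Its change at 770CU against 0CU was -0.037 with an interval of -0.50 to 0.43 (adjusted p = 0.89), but at 200CU against 0CU it was -0.98 (adjusted p = 0.013).

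The time courses of the members were compared by the Euclidean distance between their log2(FPKM + 1) stage values after subtraction of the mean over the 4 stages. Within the array the closest pair was PRUPE_1G531600 and PRUPE_1G531700 (distance 0.49), followed by PRUPE_1G531100 and PRUPE_1G531400 (0.79) and by PRUPE_1G531400 and PRUPE_1G531700 (0.84). Outside the array, PRUPE_1G531700, the member with the largest change in log2(FPKM + 1), was closest to PRUPE_5G090300 (distance 0.22) among 17969 features compared, followed by PRUPE_6G057700 (0.29). PRUPE_5G090300 had 10.57 FPKM at 0CU, then 8.261 at 200CU, then 4.646 at 475CU and finally 0.1602 at 770CU. In PRUPE_6G057700 the levels were 11.88, 6.467, 3.583 and 0.1989 FPKM in the same order of stages. In proportion both declined further than PRUPE_1G531700, with levels at 770CU that were 1.52% and 1.67% of those at 0CU, against 9.79% for PRUPE_1G531700. The distance on log2(FPKM + 1) gives little weight to such differences at low levels. The libraries of PRUPE_5G090300 overlapped between 0CU (9.21 and 11.94 FPKM) and 200CU (9.943 and 6.579). Those of PRUPE_6G057700 did not overlap between these stages, with 13.76 and 10.0 FPKM at 0CU and 4.97 and 7.964 at 200CU. Within a distance of 1 there were 60 features, and these likenesses are descriptions over 4 stages.

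**Figure D5:**
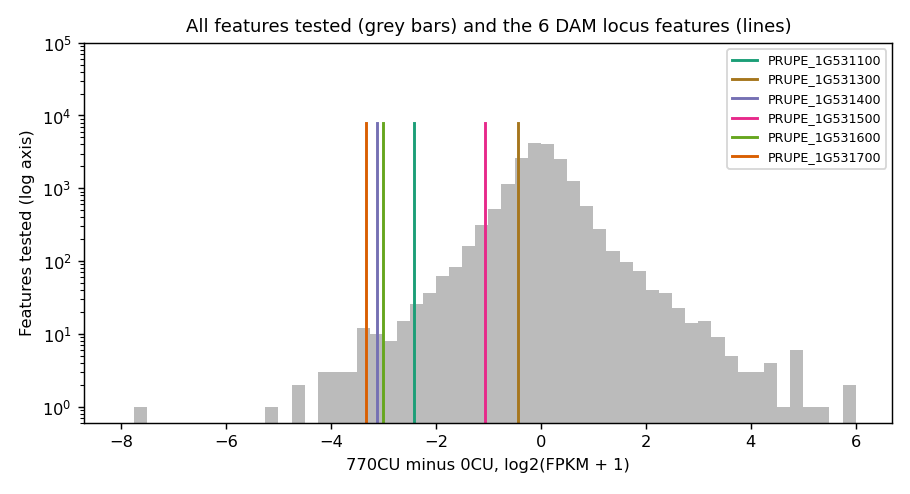
Distribution of the change in log2(FPKM + 1) at 770CU against 0CU over the 18332 features tested (x axis, change; y axis, number of features on a log scale), with the 6 members marked. The median of all features was 0.0029 and that of the members -2.72, with PRUPE_1G531300 nearest to 0.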

How the data were processed

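Total RNA of Fantasia flower buds was sequenced as paired reads of 150 nt after removal of ribosomal RNA, in 8 libraries (2 for each of 4 stages). The submitters' processing notes name Trimmomatic 0.39, HISAT2 and featureCounts. For these RNA-Seq libraries, the genome build, the annotation and the handling of fragments matching several loci are not given in the sources used here. The authors deposited 1 table of FPKM with 22285 features and 1 column per stage, so length and library size had already been divided out. No column was left unused.

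Each stage value was written as the mean of 2 libraries, each being a whole number of fragments divided by 1 length per feature (30 to 20000) and an effective library size found from values under 0.06 FPKM. A solution was accepted if chance would give at most 0.01 such lengths. Among the members this expected number was lowest for PRUPE_1G531300 (3.3e-21) and highest for PRUPE_1G531500 (0.005) and PRUPE_1G531700 (0.0038). Of the 312 features not recovered, 308 had values too high for the search, and 70.7% of the 918 features above 100 FPKM were recovered. Rebuilt values above 1 FPKM differed from the deposited ones by at most 5e-10 in relative terms, a closeness that the rule of acceptance requires. Of the values under 0.06 FPKM that were used, the 2 sizes first found for a stage explained only a part. The share was 77.1%, 69.7%, 69.8% and 60.9% at 0, 200, 475 and 770CU. Fragment numbers are those at the shortest length that solved a feature.

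Limma 3.58.1 (R 4.3.3, with trend) was run on log2(FPKM + 1) of the libraries, with all 4 stages in 1 fit and Benjamini-Hochberg adjustment. Features needed at least 1 FPKM in at least 2 libraries, except the members. Tests were two-sided. The alternatives were a pseudocount of 0.1, no filter, rescaling to the same summed FPKM, quantile or median-ratio scaling, a fit of only the stages compared, no trend, voom on fragments, and leaving out each library. Recovery used Python 3.11.15 and numpy 2.4.6. The members and lists were chosen with earlier results of these data known. The features named are the members, the regulators and the ubiquitin gene named by the study, and the 2 features outside the array nearest in profile to the member of largest change in log2(FPKM + 1). Any other was named after its values were seen. The study's methods give 3 biological replicates at 475CU and the labels 2 libraries. No sequences or coordinates are given, since no table paired the identifiers with either.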

Additional observations from a re-analysis of the deposited data

How the results depend on the processing

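No change of a member turned its direction under any alternative. Members called at 475CU against 200CU numbered 4, but 2 when only these stages were fitted, 5 after rescaling to the same summed FPKM, 5 with voom, and 0 to 3 on leaving out 1 library. In the other comparisons the leave-one-out counts were 3 to 4 at 200CU against 0CU, 4 to 4 at 770CU against 475CU and 5 to 6 at 770CU against 0CU. Besides the calls described above, those of PRUPE_1G531400 and PRUPE_1G531600 at 475CU against 200CU were lost without the smaller 475CU library (adjusted p = 0.064 and 0.060). Fitting only the stages compared ended the calls of PRUPE_1G531700 at 200CU against 0CU and 475CU against 200CU, of PRUPE_1G531100 at 475CU against 200CU and of PRUPE_1G531300 at 770CU against 0CU. The absence of a filter ended those of PRUPE_1G531700 at 200CU against 0CU and PRUPE_1G531100 at 475CU against 200CU, quantile scaling that of PRUPE_1G531700 at 200CU against 0CU, and a pseudocount of 0.1 that of PRUPE_1G531100 at 475CU against 200CU. PRUPE_1G531500 was called lower at 475CU against 200CU after rescaling and with voom (adjusted p = 0.034 and 0.040). Over all 18332 features, 4500, 572, 2035 and 7559 were called at 200CU against 0CU, 475CU against 200CU, 770CU against 475CU and 770CU against 0CU. After rescaling these counts were 6952, 1243, 5801 and 10309, and the share of them that was higher was 88.6%, 18.7%, 86.2% and 85.3%, beside 55.4%, 60.3%, 41.1% and 52.2% as deposited. When only the stages compared were fitted, they were 1978, 39, 2759 and 6924, with 74.4% higher in the second, and with voom the second was 889. On leaving out 1 library they ran from 2590 to 3603, 1 to 514, 555 to 2135 and 4436 to 7851, lowest without the larger 200CU library (2590), the smaller 475CU library (1), and the smaller 770CU library (555 and 4436). No paired analysis was possible because neither the stage columns nor the libraries recovered from them bear a replicate number.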

Other observations

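Between PRUPE_1G531300 and PRUPE_1G531400 the table lists XLOC_006189_plus, a feature whose identifier holds no gene number, so that it is no member, and which was singled out after its values were seen. Its level was 0.2091 FPKM at 0CU, then 0.4495 at 200CU, then 0.7846 at 475CU and finally 1.305 at 770CU, opposite in direction to the array. In the libraries it had 0.07516 and 0.343 FPKM at 0CU, then 0.5491 and 0.35 at 200CU, then 0.565 and 1.004 at 475CU, and finally 1.306 and 1.304 at 770CU, from 1 to 21 fragments. It passed the limit on low values only through the stages where it was high, so no test is given. Its position and strand relative to the members were not analysed here.

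Among the 16 flanking features tested, PRUPE_1G531000, the nearest number below the array and likewise named after its values were seen, had 18.67 FPKM at 200CU, against 29.5 at 0CU (change -0.64, limma adjusted p = 0.0030). Its level was 24.29 FPKM at 475CU and 23.69 at 770CU.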
